A study of Mus musculus with 3 samples.

Results

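Troponin is the calcium switch of striated muscle, and 8 genes encode it in the mouse. They were taken from the deposited table by symbol, and all 8 (Tnnt1, Tnnt2, Tnnt3, Tnni1, Tnni2, Tnni3, Tnnc1 and Tnnc2) were found among its 18245 genes. In these cells the family did not act as a unit. Tnnt2, the troponin T of the heart, was present in every library and was 14.6-fold higher in primary epicardial cells than in cardiosphere-derived cells, whereas its heart partner Tnnc1 was lower there. Tnni3, the other heart partner, was also lower (log2 −1.12), but its difference was −0.08 without CDC libraries 1 and 2, which held traces of heart muscle RNA. The family was chosen by measured values, namely its counts in these same libraries. The members' levels and changes are therefore given as a description, with their spread and without p-values.

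Troponin sits on the actin filament together with tropomyosin. Troponin C binds calcium, troponin I holds the filament off in its absence, and troponin T fastens the complex to tropomyosin. Troponins T and I each have separate genes for heart, slow skeletal and fast skeletal muscle, whereas heart and slow skeletal muscle share a troponin C gene. Tnnt2, Tnni3 and Tnnc1 form the complex of the adult heart (Tnnc1 also serves slow skeletal muscle), Tnnt1 and Tnni1 are the slow skeletal T and I, and Tnnt3, Tnni2 and Tnnc2 are the fast skeletal T, I and C. The epicardium is the mesothelial layer that covers the heart and is not itself a contracting tissue.

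The samples were 3 kinds of cultured cell from the hearts of adult C57BL/6 mice, each sequenced as 3 libraries. Cardiosphere-derived cells (CDC) grow from pieces of peeled ventricle epicardium through floating spheres and then spread as fibroblast-like cells. CDC-EpiC is an epithelial clone taken with a cylinder from CDC kept in SB-431542 (10 µM, 2 weeks), an inhibitor of TGF-beta type I receptor kinases. pEpiC are primary epicardial cells released by enzymes from the dissected heart, without peeling of the epicardium, and cultured without that inhibitor. CDC-EpiC is 1 clone, so its libraries hold no difference between clones. The labels speak of 3 separate samples of each kind but not of whether the libraries of a kind came from different animals or cultures, so p-values measure the spread between these libraries, which may be technical. Libraries held 22008833 to 22756045 expected counts, the estimated reads per gene that the authors deposited.

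CDC libraries 1 and 2 stood apart from CDC library 3. The counts of 11 heart muscle genes outside the troponin family (Myh6, Myh7, Myl2, Myl3, Mybpc3, Actn2, Nppa, Pln, Ryr2, Ckm and Mb) summed to 420 and 426 in CDC libraries 1 and 2 and to 29.6 in library 3. The sum was 32.6 to 48.0 in CDC-EpiC and 35.3 to 58.6 in pEpiC. All 11 genes were detected in CDC libraries 1 and 2, while 3 were at 0 in CDC library 3, 4 or 5 in each CDC-EpiC library and 3 to 5 in each pEpiC library. Counts of 10 red blood cell and liver genes summed to 1974 and 2727 in the same CDC libraries, 38.6 in CDC library 3 and 17.9 to 152 in the other kinds. Values without CDC libraries 1 and 2 are given beside the members and in several lists. Such a fit keeps CDC library 3 alone, which holds no spread within CDC, so only its log2 differences are given. In pEpiC library 1, counts of 10 macrophage genes summed to 19625 against 7591 and 6923 in the other pEpiC libraries, 1273 to 1336 in CDC and 509 to 569.6 in CDC-EpiC. The 8 epicardial and mesothelial genes (Wt1, Tbx18, Tcf21, Upk3b, Msln, Lrrn4, Krt19 and Aldh1a2) all had at least 10 counts in every library. Counts of 6 skeletal muscle genes (Myh1, Myh2, Myh4, Mylpf, Actn3 and Myog) summed to 88.4 to 100.4 in CDC, 199 to 232 in CDC-EpiC and 260 to 301 in pEpiC. Different genes made up these sums, mainly Actn3 in CDC-EpiC and Myh1 in pEpiC. Only 2 of them had 10 or more counts in each CDC and CDC-EpiC library, and 3 or 4 did in each pEpiC library. In bulk RNA, fewer cells of a type and less RNA per cell cannot be told apart.

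On GRCm38 (mm10) the genes lie in 3 close groups and at 2 further sites, by the GENCODE M21 annotation. Tnni1 (NCBI Gene 21952, chromosome 1 from 135779434 to 135810989) is followed on the same strand by Tnnt2 (21956, chromosome 1 from 135836354 to 135852260), with Lad1 between them. Tnnt1 (21955, chromosome 7 from 4504570 to 4516382) and Tnni3 (21954, chromosome 7 from 4518305 to 4524229) are 1923 bases apart on the minus strand. Tnni2 (21953, chromosome 7 from 142441808 to 142444410) and Tnnt3 (21957, chromosome 7 from 142498836 to 142516009) flank Lsp1 on the plus strand. Tnnc1 (21924) lies on chromosome 14 from 31208312 to 31211729, and Tnnc2 (21925) on chromosome 2 from 164777161 to 164779967. Read assignment differed in certainty between the members. No run of 31 bases in the protein-coding transcripts of a member occurs in another member. For Tnnc2, however, 592 of 800 exonic bases (74.0%) are also exon of Ube2c on the opposite strand, and for Tnni3, 86 of 2063 (4.17%) are exon of Dnaaf3 on the same strand. Whether strand was used in counting is not given in the sources used here, so reads from such shared stretches cannot be told apart.

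The sequences upstream of Tnnt2 and Tnnc1 are shown because this pair differed in opposite directions between pEpiC and CDC. Each is the 250 bases before the RefSeq start on GRCm38.p6, 5′ to 3′ on the plus strand, the first at chr1:135836084-135836333 and the second at chr14:31208062-31208311. The Tnnt2 window overlaps no annotated gene, and the Tnnc1 window overlaps no exon but lies within an annotated transcript of Nisch on the other strand. Capitals mark CATTCC on either strand, the MCAT element known from the promoters of several muscle genes, which is bound by TEAD factors.
Tnnt2: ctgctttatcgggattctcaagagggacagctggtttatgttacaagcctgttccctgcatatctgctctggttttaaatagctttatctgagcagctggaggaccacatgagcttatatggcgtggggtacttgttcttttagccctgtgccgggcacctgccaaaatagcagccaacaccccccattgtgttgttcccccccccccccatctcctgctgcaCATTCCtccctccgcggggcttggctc
Tnnc1: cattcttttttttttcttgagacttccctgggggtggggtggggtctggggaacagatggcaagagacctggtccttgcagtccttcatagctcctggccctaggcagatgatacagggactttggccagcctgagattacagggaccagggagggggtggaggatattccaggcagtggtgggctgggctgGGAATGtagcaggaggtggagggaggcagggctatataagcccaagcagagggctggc

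The CATTCC match begins 27 bases before the start of Tnnt2, and its reverse complement begins 58 bases before that of Tnnc1. Of 32536 windows of the same length, 12.6% hold this motif. It was in none of the windows of Tnnt1, Tnni1, Tnni3 and Tnnc2, nor in the window before the second RefSeq start of Tnnt2. The E-box CANNTG, which reads the same on both strands, occurred 4 times upstream of Tnnt2 and 2 times upstream of Tnnc1, against 66.2% of all windows with at least 1. The GATA-type motif AGATAA (9.97% of windows) occurred once before Tnnt2, as TTATCT on the plus strand, and not before Tnnc1. TATAAA (12.3% of windows) and the MEF2 (1.68%) and CArG (1.48%) motifs, searched on both strands, were in neither. No 2 different motifs overlapped. These are matches of letters, and no binding was measured.

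Tnnt2 was the most abundant troponin in every library. It had 220, 238 and 172 counts in CDC libraries 1, 2 and 3, and 193, 222 and 173 in the CDC-EpiC libraries. In pEpiC it had 3381, 3477 and 3099. The pEpiC libraries thus lay far above all others, while those of CDC and CDC-EpiC overlapped. In CPM (counts scaled to the TMM-corrected library size) the levels were 9.59 ± 1.56 in CDC, 8.79 ± 1.23 in CDC-EpiC and 144 ± 7.85 in pEpiC (SD, n = 3). The fitted log2 difference was 3.87 (SE 0.11) for pEpiC against CDC and −4.05 (SE 0.09) for CDC-EpiC against pEpiC, a 16.5-fold lower level in the clone. For CDC-EpiC against CDC it was −0.14 (SE 0.14), within the spread between libraries. Without CDC libraries 1 and 2 it was 4.16 for pEpiC against CDC and 0.16 for CDC-EpiC against CDC. In CDC library 3, which had few counts of other heart muscle genes, Tnnt2 was at 172 counts, close to the lowest CDC-EpiC library. The macrophage sum was also highest in pEpiC, and its part in the Tnnt2 level was not tested.

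**Figure D1:**
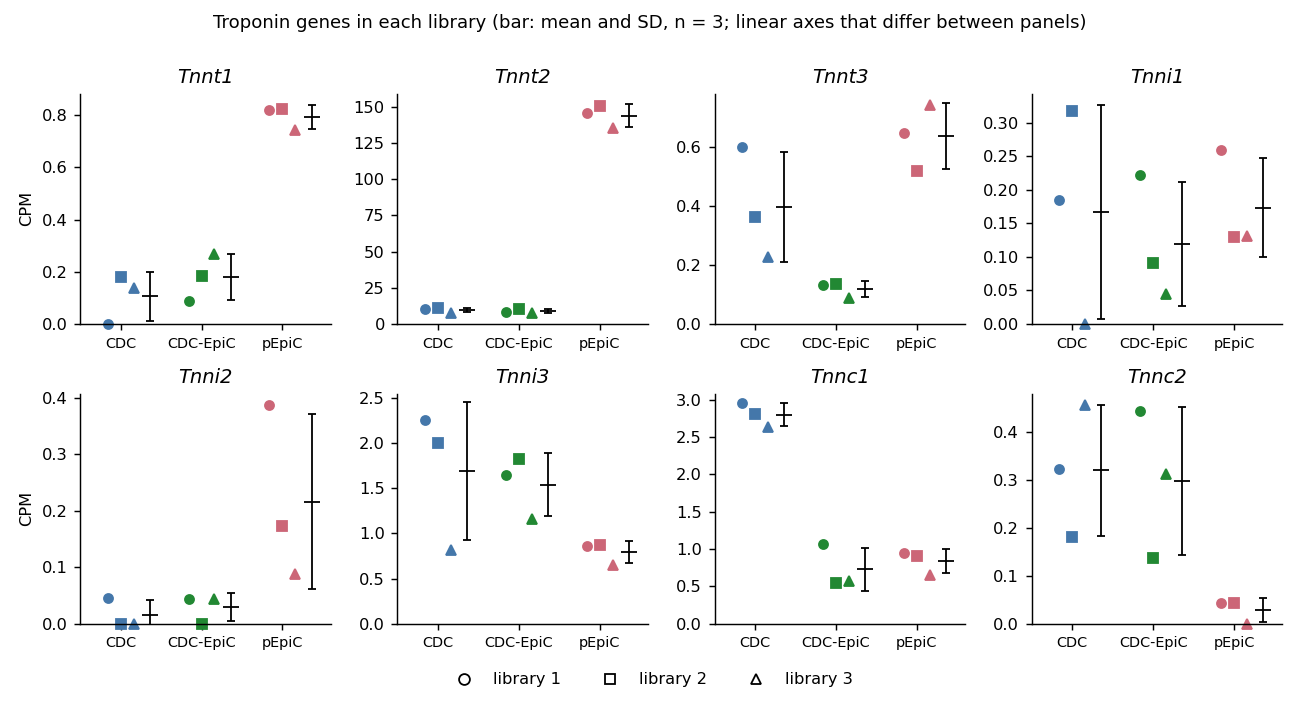
CPM (y axis, linear from 0, scaled to each gene) of the 8 troponin genes in CDC, CDC-EpiC and pEpiC, with a symbol per library and the mean and SD (n = 3) to its right. Tnnt2 stands at 135 to 151 CPM in pEpiC and at 7.69 to 10.8 CPM elsewhere, and no other member passes 3 CPM in any library.

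The skeletal troponin T genes were near the lower limit of detection. Tnnt1, the slow skeletal T, had 0, 4 and 3 counts in CDC, 2, 4 and 6 in CDC-EpiC and 19, 19 and 17 in pEpiC, so that each pEpiC library was above all libraries of the other kinds. The fitted log2 difference was 2.80 (SE 0.56) for pEpiC against CDC and −2.13 (SE 0.39) for CDC-EpiC against pEpiC. The summed counts of CDC-EpiC and CDC stood in a ratio of 1.68, with an exact 95% interval of 0.610 to 5.04. Intervals of this kind pool the libraries of a kind, so they cover counting error only and leave out the spread between libraries. They also take counts as independent molecules, which PCR copies are not. Tnnt3, the fast skeletal T, had 13, 8 and 5 counts in CDC, 3, 3 and 2 in CDC-EpiC and 15, 12 and 17 in pEpiC. Here the CDC-EpiC libraries were the lowest, and those of CDC and pEpiC overlapped (log2 difference 0.64, SE 0.40). The clone had 3.31 times fewer summed counts than CDC (interval 1.46 to 8.47), though CDC library 3 alone was at 0.228 CPM against 0.120 ± 0.0266 in the clone, and 5.33 times fewer than pEpiC (2.48 to 13.1). In CDC the 2 highest Tnnt3 values came from libraries 1 and 2, and without these the log2 difference of pEpiC against CDC was 1.43. The part of the heart muscle traces in it was not tested.

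Among the troponin I genes, only Tnni3 exceeded 10 counts in any library. Tnni3, the inhibitory subunit of the adult heart, had 49, 44 and 18 counts in CDC, 37, 40 and 26 in CDC-EpiC and 20, 20 and 15 in pEpiC. The clone was above every pEpiC library, whereas CDC library 3 fell within the pEpiC range. The levels were 1.69 ± 0.766, 1.54 ± 0.345 and 0.794 ± 0.121 CPM in that order (SD, n = 3). The log2 difference of pEpiC against CDC, −1.12 (SE 0.37), was −0.08 without CDC libraries 1 and 2, and that of CDC-EpiC against CDC went from −0.14 (SE 0.31) to 0.90. The heart muscle sum moved with Tnni3 among the CDC libraries, and its part in the Tnni3 level was not tested. CDC-EpiC exceeded pEpiC by 0.93 (SE 0.26) on the log2 scale, which was 0.15 with an offset for transcript length.

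Tnni1, the slow skeletal I, had 4, 7 and 0 counts in CDC, 5, 2 and 1 in CDC-EpiC and 6, 3 and 3 in pEpiC. The kinds overlapped throughout, and the ratio of summed counts of pEpiC to CDC was 1.04 (interval 0.419 to 2.59). Tnni2, the fast skeletal I, had 1, 0 and 0 counts in CDC, 1, 0 and 1 in CDC-EpiC and 9, 4 and 2 in pEpiC. Each pEpiC library exceeded those of the other kinds. The ratio of summed counts to CDC was 14.2, with a wide interval of 2.19 to 600 that rests on 1 count in CDC, and the counts in CDC-EpiC were 7.26 times fewer than in pEpiC (1.69 to 65.4). A gene with 3 counts or fewer in a library cannot be told from absent at this depth.

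Tnnc1, the troponin C of the heart and of slow muscle, showed another order. It had 64, 62 and 58 counts in CDC, 24, 12 and 13 in CDC-EpiC and 22, 21 and 15 in pEpiC. The CDC libraries were the highest, library 3 included, and the other kinds overlapped. The log2 difference was −1.77 (SE 0.21) for pEpiC against CDC and −1.94 (SE 0.25) for CDC-EpiC against CDC, and −1.68 and −1.85 without CDC libraries 1 and 2. Between CDC-EpiC and pEpiC it was −0.21 (SE 0.33). Tnnc1 has a short transcript, and with an offset for transcript length the difference of pEpiC against CDC went from −1.77 to −0.81. That of CDC-EpiC against pEpiC went from −0.21 to −1.16, so how close these kinds lay depended on the offset. Both differences kept their signs.

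**Figure D2:**
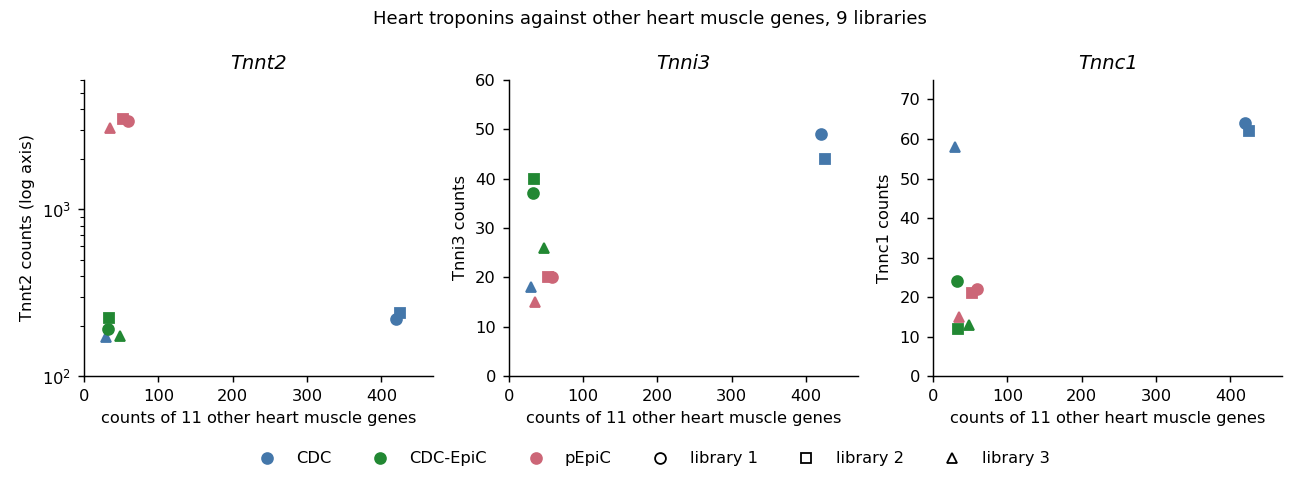
Counts of Tnnt2 (left, log axis), Tnni3 (middle) and Tnnc1 (right) against the summed counts of 11 other heart muscle genes in each of the 9 libraries, coloured by kind. CDC libraries 1 and 2 lie at 420 and 426 on the x axis and all others under 60, while Tnnt2 is highest in pEpiC and Tnnc1 in all 3 CDC libraries.

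Tnnc2, the fast skeletal C, had 7, 4 and 10 counts in CDC, 10, 3 and 7 in CDC-EpiC and 1, 1 and 0 in pEpiC. The pEpiC libraries were the lowest, with 11.1 times fewer summed counts than CDC (interval 2.70 to 97.3) and 10.3 times fewer than CDC-EpiC (2.51 to 91.1). Ube2c, the mitotic ubiquitin-conjugating enzyme whose exons cover most of Tnnc2 on the other strand, ran in the same order. It had 2573, 2708 and 2281 counts in CDC, 1600.3, 1401 and 1640.2 in CDC-EpiC and 352, 284 and 301 in pEpiC. Per 1000 Ube2c counts, Tnnc2 had 1.48 to 4.38 counts in CDC, 2.14 to 6.25 in CDC-EpiC and 0 to 3.52 in pEpiC, and these ranges overlapped. Signal of Tnnc2 itself and reads of Ube2c given to it cannot be told apart here.

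**Figure D3:**
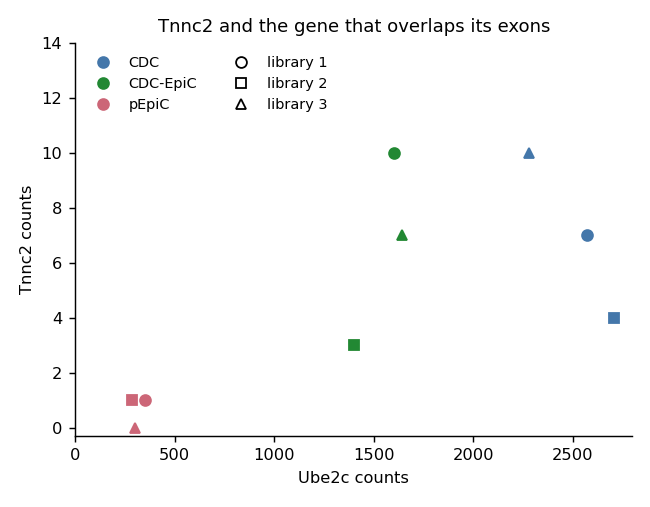
Counts of Tnnc2 (y axis) against counts of Ube2c (x axis) in the 9 libraries, coloured by kind. The pEpiC libraries have the fewest counts of both genes, at most 1 for Tnnc2 and at most 352 for Ube2c.

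Levels of different troponins were compared as TPM, which the authors deposited and which is scaled to transcript length. In CDC, Tnnt2 was at 15.4, 16.4 and 12.2 TPM, Tnnc1 at 7.27 ± 0.245 and Tnni3 at 3.26 ± 1.46 TPM (SD, n = 3). Tnnt2 was thus 1.70 to 2.30 times Tnnc1 and 3.53 to 7.55 times Tnni3. In CDC-EpiC, Tnnt2 was at 13.4, 15.6 and 12.4 TPM, against 1.99 ± 0.793 for Tnnc1 and 3.12 ± 0.645 for Tnni3. In pEpiC, Tnnt2 reached 299.8, 318 and 279 TPM and ranked 495, 469 and 550 of 18245 genes. Its partners stood at 3.01 ± 0.578 TPM (Tnnc1) and 1.99 ± 0.359 TPM (Tnni3), so that Tnnt2 was 89.2 to 119 times Tnnc1 and 141 to 177 times Tnni3. Tnnt2 made up 96.8% to 97.3% of all troponin TPM in pEpiC, 62.0% to 71.3% in CDC-EpiC and 52.5% to 56.4% in CDC. A gene total does not tell the splice forms of Tnnt2 apart, and no protein was measured.

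**Figure D4:**
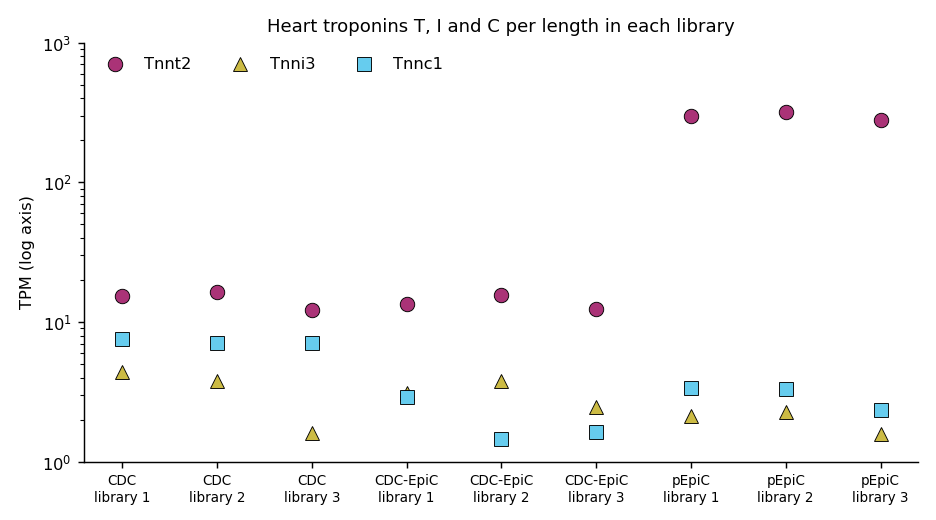
TPM (log axis) of Tnnt2, Tnni3 and Tnnc1 in each of the 9 libraries. Tnnt2 lies at 279 to 318 TPM in pEpiC and at 12.2 to 16.4 TPM in the other kinds, while Tnni3 and Tnnc1 stay under 10 TPM in every library.

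The genes around the troponins did not share the Tnnt2 pattern. Lad1, which lies 3012 bases before Tnnt2 and encodes a protein of the epithelial basement membrane zone, had 3, 0 and 4 counts in CDC, 146, 127 and 116 in CDC-EpiC and 6, 1 and 2 in pEpiC. It was high in the clone alone, with a log2 change of 5.69 (SE 0.35) against CDC (adjusted p 1.5e-09 in edgeR). Pkp1, after Tnnt2, had at most 12 counts in any library. Phlda3, before Tnni1, fell by 1.37 (SE 0.10) in pEpiC and by 1.45 (SE 0.10) in CDC-EpiC against CDC on the log2 scale (adjusted p 6.9e-07 and 3.4e-09 in edgeR). Lsp1, between Tnni2 and Tnnt3, rose by 0.38 (SE 0.07) in pEpiC and fell by 1.61 (SE 0.08) in CDC-EpiC against CDC (adjusted p 0.00061 and 1.3e-10). Nisch, beside Tnnc1, was at 645 ± 53.9, 642 ± 33.4 and 621 ± 24.8 CPM in CDC, CDC-EpiC and pEpiC (SD, n = 3), and passed no test. Dnaaf3, which overlaps Tnni3, was at 4.03 ± 0.243, 4.30 ± 0.241 and 3.61 ± 0.185 CPM and also passed none.

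Over the 9 libraries the profile nearest to that of Tnnt2 was that of Sned1, an extracellular matrix protein. Likeness was the root mean square difference of log2(CPM + 1) after each gene was centred on its mean, over 9471 genes with a mean of at least 10 CPM. It was 0.10 for Sned1, whose levels were 8.16 ± 0.446 CPM in CDC, 7.79 ± 1.71 in CDC-EpiC and 120.1 ± 5.33 in pEpiC. Next came Gabra3, a subunit of a GABA receptor (0.27), and Fabp4, a fatty acid carrier (0.30), followed by Gas6, a ligand of TAM receptors, and Angpt2, a ligand of Tie2 (both 0.31). Gabra3, Fabp4 and Angpt2 were at only 0.806 to 1.89 CPM in CDC and CDC-EpiC, where the added 1 shrinks differences. Gabra3 went from 1.14 CPM in CDC to 36.5 in pEpiC, and Angpt2 was at 1.89 CPM in CDC against 0.806 in CDC-EpiC. Nearest to Tnnc1 were 1700007K13Rik and Vwa1, and to Tnni3 Nsun5 and Gpr137. Nearest to Tnnt1 were Kcmf1 and Ankrd44, and to Tnnt3 Lhpp and Ago4. For these low members the added 1 flattens the profile, so that any gene with a small difference resembles them.

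The tests that follow were run across all genes, and the members were chosen with these contrasts known, so nothing is read from how many of them passed. In pEpiC against CDC, of 13526 genes tested, 78.3% were past the edgeR threshold (adjusted p of 0.05) (39.8% higher and 38.5% lower). Of the 8 troponin genes, 5 had enough counts to be tested and 4 passed. In CDC-EpiC against CDC, 68.8% of 12976 genes passed (34.2% higher, 34.6% lower), with 1 of 3 troponin genes tested. In CDC-EpiC against pEpiC, 81.9% of 13547 genes passed (40.3% higher, 41.5% lower), with 4 of 5 troponin genes tested. The comparisons share libraries, so their counts are not independent. Counts of calls in the lists below are to be set against these shares of all genes. On the TPM scale the median over all genes tested moved from 0.02 to 0.41 in pEpiC against CDC, and 74.6% in place of 50.8% of the calls were higher.

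The rest of the thin filament did not follow Tnnt2 as a group. In pEpiC against CDC, 12 of 16 genes could be tested, of which 3 rose, 4 fell and 5 did not pass, with a median log2 change of −0.02 (0.02 over all genes). On the TPM scale 5 rose and 2 fell. The 4 tropomyosins, the partners of troponin T on actin, all fell. Tpm1 was at 447 ± 1.36 CPM in pEpiC against 989 ± 10.8 in CDC (log2 change −1.18 ± 0.06 SE, adjusted p 4e-08 in edgeR). Tpm2 was at 85.4 ± 2.38 against 175 ± 8.61 CPM (log2 change −1.08 ± 0.06 SE, adjusted p 1.6e-07). On the TPM scale Tpm4 turned sign and Tpm3 did not pass, and Tpm4 was also lost with the length offset. Of the tropomodulins, which cap the pointed ends of actin filaments, Tmod1, Tmod2 and Tmod3 rose and Tmod4 did not pass. Tmod2 rose from 3.17 ± 0.479 to 11.3 ± 1.52 CPM (log2 change 1.80 ± 0.15 SE, adjusted p 1.6e-06) and Tmod3 from 91.1 ± 13.8 to 133 ± 1.32 CPM (log2 change 0.51 ± 0.09 SE, adjusted p 0.00042). Actc1, the actin of heart muscle, had at most 3 counts in each pEpiC library.

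In CDC-EpiC the thin filament genes were mostly lower. Against CDC, 1 rose, 9 fell and 1 of 11 did not pass, with a median of −0.67 (0.0027 over all genes). Lmod1, the leiomodin of smooth muscle, fell from 14.1 ± 1.78 to 1.45 ± 0.573 CPM (log2 change −3.28 ± 0.20 SE, adjusted p 1.6e-09 in edgeR), and Tpm3 from 537 ± 13.1 to 334 ± 25.3 CPM (log2 change −0.69 ± 0.08 SE, adjusted p 2.2e-06). Against pEpiC, 3 of 11 rose and 7 fell, with a median of −0.48 (−0.02 over all genes). Tpm1 and Tpm2 were higher by 0.56 (SE 0.06) and 0.54 (SE 0.06) on the log2 scale (adjusted p 6.8e-06 and 8.8e-06), where the Tpm2 call was lost on the TPM scale and with the length offset. Lmod1 and Tmod2 fell by 3.45 (SE 0.22) and 3.42 (SE 0.18) (adjusted p 2e-07 and 4.6e-08).

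**Figure D5:**
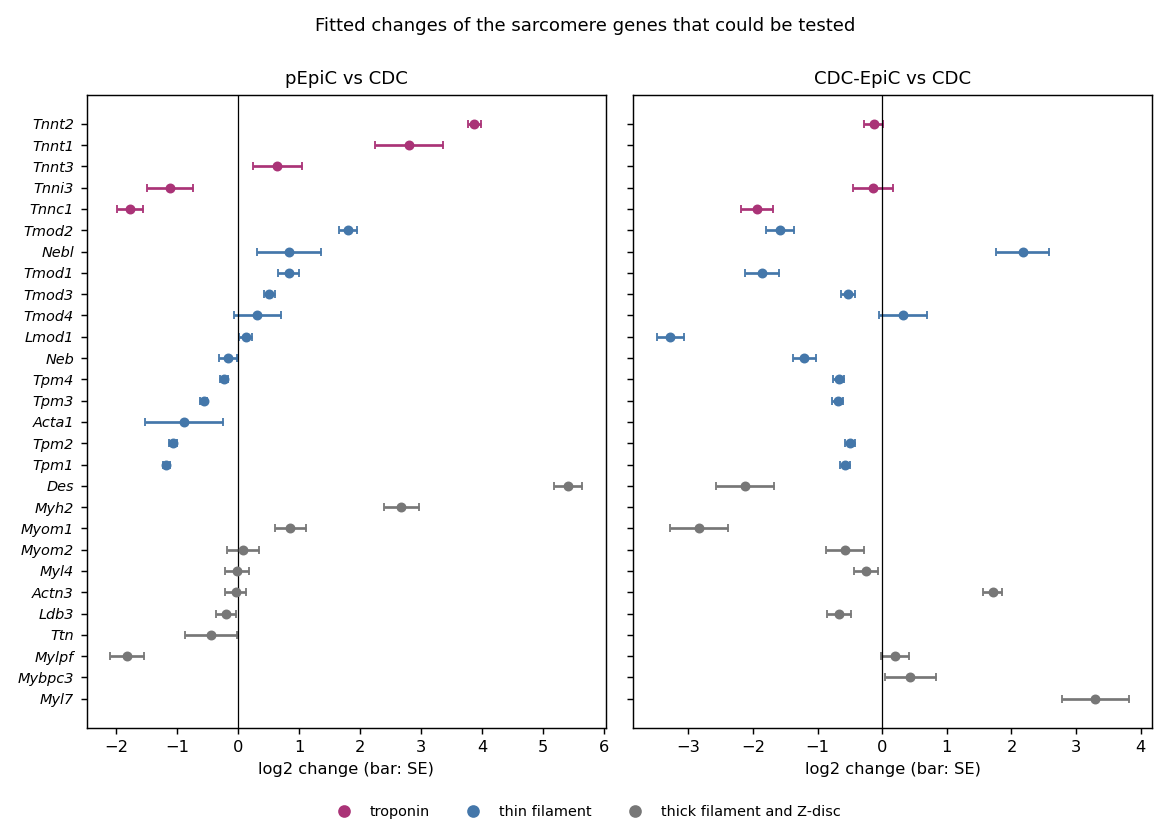
Fitted log2 changes with SE (bars) of the troponin, thin filament and thick filament or Z-disc genes that could be tested, in pEpiC against CDC (left) and CDC-EpiC against CDC (right), without Myh1, which had 0 counts in CDC. In pEpiC, Tnnt2 (3.87) and Des (5.41) stand far to the right of 0 while Tnni3, Tnnc1, Tpm1 and Tpm2 lie to the left.

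Many genes of the thick filament and the Z-disc were scarcely detected. Of 33 genes measured, 12 had at most 3 counts in every CDC library, 19 in every CDC-EpiC library and 17 in every pEpiC library. The heart myosin genes Myh6, Myh7, Myl2 and Myl3 were among these in both CDC-EpiC and pEpiC. In pEpiC against CDC, 10 could be tested, of which 4 rose, 1 fell and 5 did not pass, with a median of 0.03. Des, the intermediate filament that ties Z-discs together in muscle and is also made by smooth muscle and some stromal cells, was at 85.7 ± 8.80 CPM in pEpiC against 1.96 ± 1.09 in CDC (log2 change 5.41 ± 0.23 SE, adjusted p 2e-08 in edgeR) and 0.448 ± 0.203 in CDC-EpiC. Des counts were 48, 64 and 17 in CDC and 1810 to 2182 in pEpiC, and its log2 change was 6.75 without CDC libraries 1 and 2. Myh1, a fast skeletal myosin singled out after its values were seen, had 0 counts in each CDC library and 6.89 ± 0.511 CPM in pEpiC, at least 50.3-fold higher against a floor of 3 counts per library. Reads of Myh1, Myh2 and other near-identical myosins may have been split between them. In CDC-EpiC against CDC, 2 of 9 rose and 3 fell (median −0.25). The rises were of low genes, Actn3 from 2.46 ± 0.200 to 8.11 ± 0.753 CPM and Myl7 from 0.122 ± 0.141 to 1.25 ± 0.325 CPM. Their log2 changes were 1.71 (SE 0.15) and 3.30 (SE 0.52) (adjusted p 8.4e-08 and 4.6e-05 in edgeR). Without CDC libraries 1 and 2 the log2 change of Ldb3 went from −0.67 to −0.59 and that of Des from −2.13 to −0.79. No called change turned sign. In CDC-EpiC against pEpiC, 4 of 11 rose (Myl7, Mylpf, Mybpc3 and Actn3) and 6 fell (median −0.51). Des was much lower (log2 change −7.58 ± 0.16 SE, adjusted p 1.5e-10 in edgeR).

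Heart muscle genes outside the sarcomere showed no common direction in pEpiC. Of 9 tested against CDC, 3 rose, 4 fell and 2 did not pass (median 0.16). Atp2a2, the calcium pump of the sarcoplasmic reticulum, which most cells also express, rose from 284 ± 23.5 to 549 ± 17.8 CPM (log2 change 0.92 ± 0.07 SE, adjusted p 9.6e-07 in edgeR). Cryab, a small heat shock protein, fell from 716 ± 58.9 to 216 ± 7.68 CPM (log2 change −1.76 ± 0.08 SE, adjusted p 2.4e-08) and Ankrd1, a stretch-responsive nuclear protein, from 371 ± 7.02 to 216 ± 6.56 CPM (log2 change −0.82 ± 0.06 SE, adjusted p 5.4e-07). Without CDC libraries 1 and 2 the log2 change of Fabp3 went from −0.44 to −0.29 and that of Trdn from 1.23 to 0.995. On the TPM scale 4 rose and 2 fell. Of the 21 genes measured, 8 had at most 3 counts in each pEpiC library, among them Ckm, Mb and Pln. In CDC-EpiC 9 were that low, and in CDC 3. Other low genes rose in pEpiC. Cox6a2 went from 1.49 ± 0.749 to 4.78 ± 0.505 CPM (log2 change 1.64 ± 0.32 SE, adjusted p 0.00079). Trdn went from 0.501 ± 0.155 to 1.22 ± 0.268 CPM (adjusted p 0.0053). In CDC-EpiC, none of 8 rose and 6 fell against CDC (median −1.30). Without CDC libraries 1 and 2 the log2 change of Ryr2 went from −1.75 to −0.95. The falls at 10 CPM or more were led by Ankrd1 (log2 change −2.77 ± 0.12 SE, adjusted p 2.8e-11) and Cacna1c, a calcium channel (log2 change −1.93 ± 0.08 SE, adjusted p 1.4e-11). Against pEpiC, 1 of 9 rose (Cryab, log2 0.87, SE 0.06, adjusted p 6.5e-07, lost with the length offset) and 8 fell (median −1.65).

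The transcription factors known from troponin and other muscle promoters split in every comparison. In pEpiC against CDC, 8 of 18 rose and 6 fell (median 0.07), beside 39.8% and 38.5% of all genes. With the offset for transcript length 5 rose and 10 fell, and on the TPM scale 12 rose and 4 fell. No called change turned sign without CDC libraries 1 and 2. Among genes with at least 10 CPM, the following changes kept their direction under all of these. Mef2c rose from 4.88 ± 1.15 to 24.2 ± 1.28 CPM (log2 change 2.27 ± 0.14 SE, adjusted p 1.9e-07 in edgeR) and Tbx20 from 31.4 ± 1.59 to 117 ± 7.93 CPM (log2 change 1.85 ± 0.07 SE, adjusted p 8.9e-09). Gata4 fell from 183 ± 5.90 to 86.2 ± 2.37 CPM (log2 change −1.12 ± 0.06 SE, adjusted p 6.5e-08) and Mkl1, a coactivator of Srf, from 151 ± 14.7 to 61.5 ± 1.45 CPM (log2 change −1.33 ± 0.08 SE, adjusted p 1.5e-07). The TEAD factors, which bind the MCAT element, did not move together. Tead4 fell from 9.13 ± 0.679 to 1.11 ± 0.269 CPM (log2 change −3.07 ± 0.18 SE, adjusted p 1.6e-07) and Tead2 from 87.4 ± 5.35 to 56.3 ± 2.54 CPM (log2 change −0.67 ± 0.07 SE, adjusted p 8.1e-06, lost on the TPM scale), while Tead3 did not pass. Tead1 was at 554 ± 52.1 against 422 ± 23.5 CPM, and its sign turned with the length offset. Its log2 change went from 0.36 to 0.28 without CDC libraries 1 and 2. In CDC-EpiC, 8 rose and 9 fell against CDC (median −0.10), beside 34.2% and 34.6% of all genes. No called change turned sign without CDC libraries 1 and 2. Tbx20 and Gata6 rose by 1.73 (SE 0.08) and 1.67 (SE 0.08), and Tbx5 fell by 2.37 (SE 0.12) on the log2 scale (adjusted p 3.8e-11, 6.8e-11 and 9.8e-11). Against pEpiC, 7 rose and 8 fell (median −0.09), with 10 and 7 under the length offset and 4 and 11 on the TPM scale. Gata4 and Gata6 were higher by 1.72 (SE 0.07) and 1.27 (SE 0.05), and Mef2c and Tbx5 fell by 3.61 (SE 0.10) and by 2.37 (SE 0.11) (adjusted p 1.1e-08, 1.1e-08, 7.3e-10 and 2e-08). Myog and Myf5, regulators of skeletal muscle, had at most 3 counts in every library, as did Hand1.

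Cells without troponin set actin and myosin contraction through calmodulin, myosin light chain kinase and caldesmon. All 17 genes of this list could be tested. In pEpiC against CDC 5 rose and 11 fell (median −0.32), while on the TPM scale 7 rose and 7 fell. Without CDC libraries 1 and 2 the log2 change of Cald1 went from 0.22 to 0.15. Acta2, the smooth muscle actin, fell from 1957 ± 231 to 545 ± 15.9 CPM (log2 change −1.88 ± 0.09 SE, adjusted p 4e-08 in edgeR), and Myl6, a myosin light chain, by 2.11 on the log2 scale (SE 0.11, adjusted p 6.1e-08). With the length offset the Myl6 change was −1.12. Myl9, the regulatory light chain of smooth muscle, and Ppp1r12a, a subunit of myosin phosphatase, rose by 0.72 (SE 0.08) and 0.65 (SE 0.07) (adjusted p 2.2e-05 and 1.2e-05). In CDC-EpiC against CDC 2 rose and 13 fell (median −0.80), and none of these turned sign without CDC libraries 1 and 2. Mylk, the myosin light chain kinase, rose from 130 ± 21.7 to 847 ± 59.2 CPM (log2 change 2.69 ± 0.11 SE, adjusted p 1.4e-11), and Myl12b by 0.28 (SE 0.08, adjusted p 0.004). Tagln, transgelin, fell from 261 ± 17.1 to 34.5 ± 4.99 CPM (log2 change −2.93 ± 0.10 SE, adjusted p 2.3e-12), and Cnn1, calponin, by 2.58 (SE 0.17, adjusted p 2.2e-09). Against pEpiC 7 rose and 9 fell (median −0.64), or 4 and 10 under the length offset and 5 and 11 on the TPM scale. The offset lost the calls of Calm2, Cnn2 and Myl12a. Mylk was higher by 2.93 (SE 0.07) while Tagln fell by 3.23 (SE 0.09) on the log2 scale (adjusted p 3.9e-10 and 8e-10). Myl6 was higher by 1.48 (SE 0.06) and Myl9 fell by 3.07 (SE 0.07) in the clone (adjusted p 1.5e-08 and 2.6e-10). With the length offset these were 0.51 and −3.76.

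Proteins that choose the exons of troponin T transcripts were called about as often as genes in general. In pEpiC against CDC 8 of 9 tested passed, beside 78.3% of all genes. Of these, 3 rose and 5 fell (median −0.37, and 0.02 over all genes). On the TPM scale 4 rose and 2 fell, and the falls of Celf1, Ptbp1 and Rbm20 were lost. Celf2, of the CELF family known to favour inclusion of an embryonic exon of Tnnt2, rose from 61.2 ± 5.32 to 203 ± 8.62 CPM (log2 change 1.69 ± 0.07 SE, adjusted p 1.6e-08 in edgeR). Mbnl2, of the muscleblind family known to oppose it, rose from 273 ± 18.2 to 398 ± 5.64 CPM (log2 change 0.51 ± 0.06 SE, adjusted p 3.1e-05). Ptbp1 and Rbm38 fell by 0.63 (SE 0.07) and 0.75 (SE 0.11) (adjusted p 1.2e-05 and 0.00012). In CDC-EpiC against CDC 7 of 9 passed, beside 68.8% of all genes, and 5 rose and 2 fell (median 0.24). The log2 change of Celf1 went from 0.24 to 0.18 without CDC libraries 1 and 2. Mbnl3 rose to 37.0 ± 3.94 CPM (log2 change 2.77 ± 0.11 SE, adjusted p 6.5e-12) and Rbm38 by 0.96 (SE 0.10, adjusted p 4.7e-07), while Mbnl1 and Mbnl2 fell by 0.77 (SE 0.07) and 0.70 (SE 0.08) (adjusted p 1.4e-07 and 8.2e-07). Against pEpiC 5 rose and 3 fell (median 0.57), or 4 and 4 on the TPM scale, with Mbnl3 and Rbm38 higher by 4.42 (SE 0.14) and 1.67 (SE 0.11) while Mbnl1 and Mbnl2 fell by 1.31 (SE 0.05) and by 1.25 (SE 0.05) on the log2 scale (adjusted p 1.6e-09, 2.2e-07, 6.6e-09 and 4.6e-09). Which Tnnt2 exons the cells used was not measured by gene totals.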

How the data were processed

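Messenger RNA of 9 libraries, selected on oligo(dT) and read as 100-base pairs, was analysed from a deposited table of 18245 genes. Per library, the authors deposited expected counts (30.3% of values not whole), FPKM and TPM, the latter scaled to transcript length. Their 9 columns of means were not used. The submitters' processing notes name mm10, HISAT2 2.0.4, Bowtie2 2.2.5, RSEM 1.2.12 and DESeq2 1.4.5, with no order; annotation and strand use are not given in the sources used here. Library numbers carried no pairing.

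Expected counts were rounded. Each pair of kinds was fitted alone in edgeR 4.0.16 (R 4.3.3) after filterByExpr (minimum count 10, total 15) with TMM and glmQLFTest. The Benjamini-Hochberg adjustment ran over all genes tested (threshold 0.05). SE of the edgeR changes were derived from the test, as the fitted change divided by the square root of the quasi-likelihood F statistic. Summed counts of low genes were compared by exact binomial 95% intervals scaled to effective library size, and 3 counts served as the floor. limma 3.58.1 was used on log2(TPM + 1) and log2(FPKM + 1), and DESeq2 1.42.0 as an alternative. The length offset removed the trend of levels with transcript length. The fits were also run on simulated counts in which few genes changed. Most genes passed in the real comparisons, so that run does not show the error rate here. Positions and promoters came from GENCODE M21 and RefSeq (GRCm38), and 6 of 8 members had a RefSeq window (Tnnt3 and Tnni2 had none). Python 3.11.15, pandas 2.3.3, NumPy 2.4.6, SciPy 1.17.1 and matplotlib 3.10.9 were used.

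The members and gene lists were chosen with earlier results of these data known. Genes were named by rule: all members, the 5 nearest profiles of Tnnt2 and 2 of each other countable member, chromosome neighbours (not all printed), and, per list and comparison, the 2 largest rises and falls past the threshold without overlap between kinds and with at least 10 CPM. Others, such as Myh1, Tpm4, the TEAD factors, Actc1 and the genes named as scarce, as lost calls or as changed signs, were named after their values were seen. A gene that the rule would name is not reported here. Mkl1 and Mkl2 are listed in the table under these older symbols. The alternatives were RLE scaling, DESeq2, no count filter, a stricter one of 10 counts in each library, all libraries in 1 fit, TPM, FPKM, the length offset, a library-number block, and fits without each library or without CDC libraries 1 and 2.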

Additional observations from a re-analysis of the deposited data

How the results depend on the processing

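The Tnnt2 difference of pEpiC against CDC, log2 3.87, kept its sign under all alternatives run, at 3.73 to 3.96 with 1 library left out, 4.27 on log2(TPM + 1), 4.45 with the length offset and 4.16 without CDC libraries 1 and 2. That of CDC-EpiC against pEpiC, −4.05, ranged from −4.15 to −3.95 with 1 library left out, and was −4.35 on log2(TPM + 1) and −4.69 with the length offset. For CDC-EpiC against CDC it was −0.26 to −0.04 with 1 library left out and 0.16 without CDC libraries 1 and 2. On TPM, 32.7% in place of 49.3% of calls in CDC-EpiC against pEpiC were higher, with the median of all genes at −0.33.

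The lists with many scarce genes depended on the filter by construction, since it sets how many genes are tested. In pEpiC against CDC, 5 thick filament and Z-disc genes were called, with 13 under no filter, 2 under at least 10 counts in every library and 6 to 13 with 1 library left out; for heart muscle genes outside the sarcomere the 7 calls became 14 under no filter and 7 to 14 with 1 library left out. In CDC-EpiC against CDC, the thick filament calls were 5, then 15, 2 and 5 to 12, and those of the other list 6, then 11 under no filter and 6 to 10. In CDC-EpiC against pEpiC, 10 thick filament calls became 3 under the strict filter.

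The library numbers shared no source named in the labels, and deviations of same-numbered libraries correlated at −0.16 to 0.11. With the replicate block, 10604, 8831 and 11096 genes were called, against 10593, 8928 and 11091 without it, and Tnnt2 was 3.88 in pEpiC against CDC. Under the alternatives, 6 Tnnt2 values moved by more than the spread between libraries and 41 did not, against 28 and 124 for the other members. Depth limits Tnnt1, Tnni1, Tnni2, Tnnt3 and Tnnc2, each under 20 counts in every library. Leaving 1 library out leaves 2 against 3, and leaving out CDC libraries 1 and 2 leaves CDC library 3 alone.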
